A study of Homo sapiens with 10 samples.

Results

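The sites described here are places in the genome of SK-N-SH cells that carried a peak of the coactivator MAML3 in every library and also a reproducible peak of the retinoic acid receptor RARα. Peaks from 8 deposited lists were merged into sites wherever they overlapped by at least 1 bp. A site was a member when all 4 MAML3 lists and both RARα lists of at least 1 treatment held it. The rule gave 343 shared sites of 10581 sites in all (3.24%). They made up 19.9% of the 1724 sites present in all 4 MAML3 lists, and 56.5% of the 607 sites present in both RARα lists of a treatment. Since presence in the lists selected these sites, the number of lists that hold them is a description and not a result. Leaving out the short list of RARα untreated replicate 2 made the rule easier to meet and raised the number to 784. Leaving out RARα RA replicate 1 or 2 raised it to 558 or 530.

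SK-N-SH is an established human neuroblastoma line. In 4 groups of 2 libraries each, MAML3 or RARα was immunoprecipitated from cells treated with 1 µM retinoic acid (RA) or, as untreated controls (UT), with vehicle, and the bound DNA was sequenced (ChIP-seq). The labels call the cells of all groups control cells and name no genetic change. Before treatment all spent 24 hours in charcoal-stripped serum, which is depleted of retinoids and steroids. No label names separate cultures for the replicates, which may therefore differ only by technical spread. The names of the 2 untreated MAML3 lists share a library number and an index tag, so they may hold 1 library sequenced on 2 lanes. The name of the RARα untreated replicate 2 list says merged in place of a lane.

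MAML3 belongs to the mastermind-like family, whose members are known as coactivators of the Notch pathway: they join the complex of the Notch intracellular domain with the DNA-binding protein RBPJ and recruit histone acetyltransferases. RARα sits on DNA as a heterodimer with an RXR receptor, with or without its ligand. Without ligand it tends to hold corepressors, and retinoic acid exchanges them for coactivators. In neuroblastoma cells retinoic acid slows growth and drives neuronal differentiation.

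Each peak carries 1 number, a score with a floor near 70 and, for most of the highest peaks, a ceiling of 3100. The sources used here do not define it, and scores were therefore ranked within a list, without comparing their sizes between lists. A peak's percentile is its score rank among all peaks of its list, from 0 to 100. Coordinates are those of hg19, counted from 1. An hg19 sequence and annotation were not used here, so no site sequence is printed. The genes named beside a site were placed from general knowledge of the hg19 map, with symbols and neighbour order looked up in the RefSeq table of GRCh38.p14, and no count rests on them.

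The shared sites stood high in the MAML3 lists. Presence in all 4 MAML3 lists, which the rule uses, is not independent of score, so part of this follows from the rule. The median of the mean MAML3 percentile was 90 at the shared sites. It was 74.4 over all 1724 sites in all 4 MAML3 lists and 71.1 at the 1381 of these that were not shared. The lists held 2222 and 6759 MAML3 peaks in untreated cells and 7532 and 6230 after RA. The median percentile of the shared sites was 82.8 and 94.5 in untreated replicates 1 and 2, and 95.7 and 94.9 in RA replicates 1 and 2. In the same order their median scores were 298, 827, 883 and 746. The score ran from 70.3 to 3100 in untreated replicate 1, so even in the shortest MAML3 list the shared sites covered nearly the whole scale. When each list was shortened to its 2222 highest peaks, 91.8, 91 and 93% of the shared sites were kept in untreated replicate 2, RA replicate 1 and RA replicate 2. Of the 763 sites in all 4 MAML3 lists that had no RARα peak, 72.7, 61.3 and 57.1% were kept.

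Their RARα peaks were of more middling rank within the RARα lists. The RARα lists held 1321 and 251 peaks in untreated cells, and 1103 and 1064 after RA. A percentile depends on the length of its list, and all of these are shorter than the MAML3 lists. The percentiles of the 2 proteins therefore do not compare how strongly each was bound. The shared sites had a median percentile of 79.8 and 52.6 in the untreated lists and of 68.5 and 69.4 in the RA lists, with median scores of 204, 105, 165 and 169. Not every shared site was in each RARα list. Untreated replicate 1 held 306 of the 343 (89.2%), untreated replicate 2 held 105 (30.6%), RA replicate 1 held 325 (94.8%) and RA replicate 2 held 327 (95.3%). The low share belongs to the list with 251 peaks.

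Both proteins peaked at nearly the same position within a site. The mean centre of the MAML3 peaks and the mean centre of the RARα peaks were 31.4 bp apart at the median (quartiles 13 and 52.3, largest 281 bp). The distance was at most 50 bp at 251 sites (73.2%), at most 100 bp at 320 (93.3%) and larger at the other 23. For scale, the mean centres of the untreated and the RA MAML3 peaks differed by a median of 23 bp at the same sites. Taken list by list, the 16 pairs of a MAML3 with a RARα list had median distances of 36 to 51.5 bp, the 6 pairs of MAML3 lists 21 to 35 bp and the 6 pairs of RARα lists 33 to 52.5 bp. The distances between lists of the 2 proteins thus lay within the range seen among the RARα lists. The overlap that defines a site bounds these distances, and many peak widths are multiples of 50 bp, so they carry no test. Such widths made up 23.8 and 66.6% of the untreated MAML3 lists and 99.9 and 100% of the RA MAML3 lists. In the RARα lists they made up 20.7 to 38.1%. Whether all lists were called alike is not stated in the sources used here, which also limits the rank comparisons of the treatments below.

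**Figure D1:**
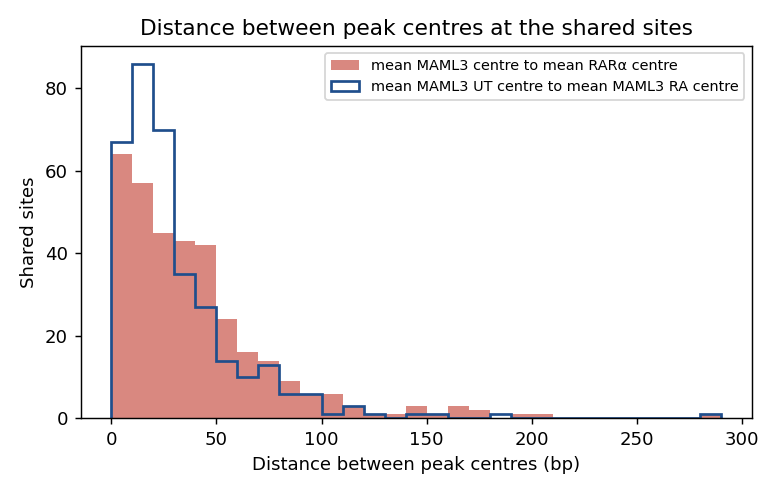
Distance in bp between the mean MAML3 and mean RARα peak centres (filled bars) and between the mean untreated and mean RA MAML3 centres (line) over the 343 shared sites, in bins of 10 bp. Both distributions are highest near 0 and fall off by about 100 bp, beyond which 23 sites of the filled bars lie.

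The sites were narrow. Their merged width was 583 bp at the median (quartiles 533 and 625) and ran from 304 to 1204 bp, with 1 site over 1000 bp. At 314 sites (91.5%) a stretch was common to the peaks of every list that held the site, with a median length of 190.5 bp. The widest, on chromosome 5 at 124745595 to 124746798, was also the only one over 1000 bp, and its MAML3 and RARα centres lay 204 bp apart. Another of the 3 widest, on chromosome 4 at 41823962 to 41824799, was 838 bp wide, with centres 143 bp apart.

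The 12 shared sites with the highest joint rank, the mean of the MAML3 and the RARα percentile, were led by a site inside HDAC9, the gene of a class II histone deacetylase, on chromosome 7 at 18737696 to 18738450. It scored 2177 and 3100 in the untreated MAML3 lists and 3100 in both RA lists. For RARα it scored 803 and 359 in the untreated lists and 367 and 838 in the RA lists. This site was in all 8 lists, and neither treatment was set apart from the other by its ranks. A site between HAND2, which encodes a transcription factor of the sympathetic lineage, and FBXO8, on chromosome 4 at 174990899 to 174991561, stood at 3100 in all 4 MAML3 lists. Its RARα scores were 592 and 189 untreated and 409 and 575 after RA. A score of 3100 is the usual ceiling, so any difference between treatments above it could not be seen.

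**Figure D2:**
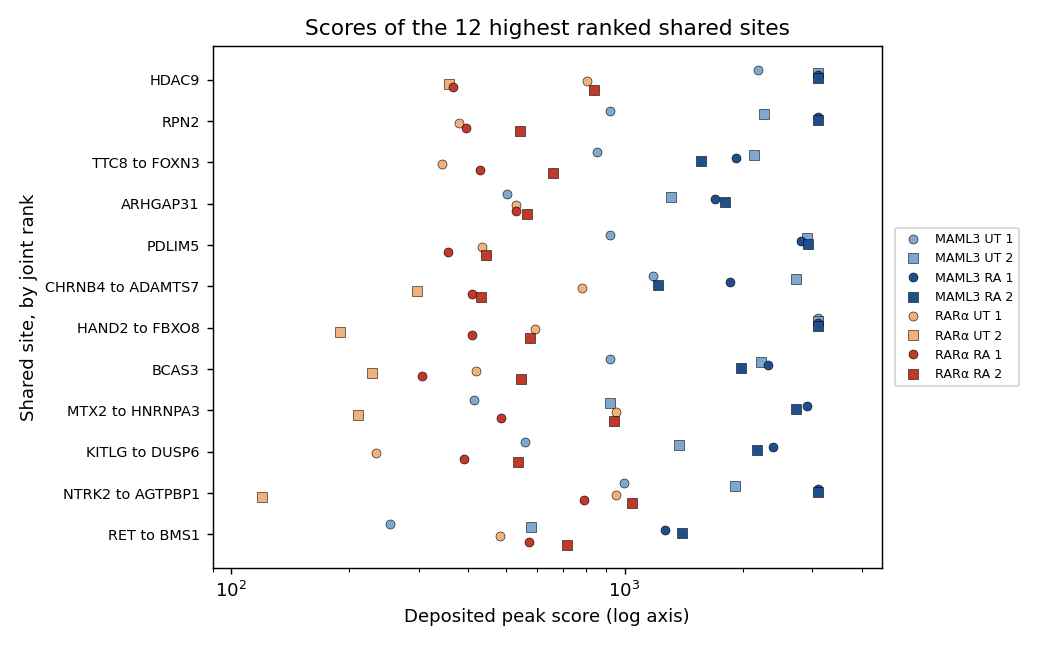
Deposited scores (log axis) of the 12 shared sites with the highest joint rank, labelled by the gene or neighbouring genes, with 1 symbol per list (blue MAML3, orange and red RARα, pale untreated, dark RA, circles replicate 1, squares replicate 2). A missing RARα UT 2 symbol means no peak in that list, scores are to be read against their own list only, and the MAML3 symbols at the right edge stand at the 3100 ceiling.

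Several of the 12 stood at higher MAML3 ranks after RA than before. For this comparison the 1724 sites in all 4 MAML3 lists were ranked from 0 to 100 within each list, so that the same sites were ordered in each. A site counted as above when both RA ranks exceeded both untreated ranks, and as below in the opposite case. Of the 12 sites, 8 were above and 2 below, against 22.1% above and 25.4% below over the 1724. The joint rank that picked the 12 uses scores of these same lists, so this count is not independent of the choice of sites. The site between MTX2 and HNRNPA3, in the gene-poor stretch beyond the HOXD homeobox cluster on chromosome 2 (177439018 to 177439731), had ranks of 87.5 and 82.5 untreated and 99.2 and 99.5 after RA. Its MAML3 scores were 414 and 918 untreated and 2910.2 and 2728 after RA, and its RARα scores were 949.8 and 210.3 untreated and 485 and 943 after RA.

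The site next to RET, the receptor tyrosine kinase gene for GDNF-family ligands, moved furthest within this set. It lay on chromosome 10 at 43551530 to 43552079. Its MAML3 ranks were 73.6 and 64.2 in untreated cells against 91.5 and 95.8 after RA, with scores of 254, 579.7, 1267 and 1401. RARα scored 483 in untreated replicate 1 and 571 and 716 in the RA lists, and untreated replicate 2 had no peak. The 2 treatments did not overlap in MAML3 rank at this site.

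Other members of the 12 were above by smaller margins. Between KITLG, which encodes the ligand of the KIT receptor, and DUSP6, a phosphatase gene that restrains ERK signalling, the site on chromosome 12 at 89672610 to 89673259 had MAML3 ranks of 92.4 and 91.8 untreated and 98 and 99 after RA. Between the neurotrophin receptor gene NTRK2 and AGTPBP1, on chromosome 9 at 87877249 to 87877852, they were 98.3 and 96.1 untreated and 99.6 and 99.8 after RA. RARα was present there in all 4 lists, with scores of 954, 119.8, 790 and 1043. In ARHGAP31, the gene of a GTPase-activating protein for Rac and Cdc42, the site on chromosome 3 at 119051436 to 119052055 had ranks of 91 and 91 untreated and 95 and 97.9 after RA. Also above were sites in RPN2 (chromosome 20, 35862391 to 35863009), in PDLIM5 (chromosome 4, 95574249 to 95574849) and in BCAS3 (chromosome 17, 59222219 to 59222877).

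The opposite order was seen at 2 of the 12. On chromosome 15, beside the nicotinic receptor subunit gene CHRNB4 and toward ADAMTS7 (78963957 to 78964620), the MAML3 ranks were 99.1 and 98.5 untreated and 96 and 94.2 after RA. RARα scored 782 and 298 untreated and 410.1 and 432 after RA. Between TTC8 and FOXN3 on chromosome 14 (89451972 to 89452776) the MAML3 ranks were 97 and 97.1 untreated and 96.3 and 96.8 after RA, a gap of less than 1 rank unit, and the centres of the proteins were 169 bp apart.

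At the other end of the joint order, the 5 lowest sites had mean percentiles of 39.1 to 63.6 for MAML3 and 14.5 to 42 for RARα. The lowest was on chromosome 16 at 73338481 to 73339032, with MAML3 scores of 74.9, 137, 251 and 221 and RARα scores of 99.6 and 83.2 in the RA lists only. The site on chromosome 1 at 97164050 to 97164599 followed, with 70.3 in MAML3 untreated replicate 1, just above the floor of that list, and 323, 562 and 399.9 in the other lists. Its RARα scores were 81.3 in untreated replicate 1 and 82 and 73.2 after RA. Sites such as these met the rule through at least 1 peak close to the score floor. The chromosome 1 site was not low throughout, with MAML3 percentiles of 77.3, 90.6 and 85.9 in untreated replicate 2 and RA replicates 1 and 2. Of the 5 lowest, 3 were above in MAML3 rank after RA and 0 below, against 22.1% and 25.4% over the 1724 sites. As for the 12, this count is not independent of the choice of sites.

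Sites that narrowly missed the rule had lower median MAML3 percentiles. Presence in the lists, which the rule uses, is not independent of score, so these values are a description. A further 234 sites had all 4 MAML3 lists and 1 RARα list of each treatment, with median percentiles of 83.2 for MAML3 and 44 for RARα, against 90 and 63.9 for the shared sites. On the MAML3 side, 117 sites had both RARα lists of a treatment and 3 MAML3 lists. Their median percentiles were 73.6 for MAML3 and 61.7 for RARα, the latter close to that of the shared sites. Of these 117, 104 lacked only MAML3 untreated replicate 1, the list with 2222 peaks. Many were therefore kept out by the shortest MAML3 list.

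In both RARα RA lists but neither untreated list were 33 of the 343 shared sites (9.62%). Over all 2071 sites with any RARα peak this pattern was found in 116 (5.6%). The reverse pattern was found at 6 shared sites (1.75%), against 11 of the 2071 (0.531%). The rule used these RARα lists. Among the 607 sites with both RARα lists of a treatment, whatever their MAML3 peaks, the pattern of the RA lists alone made up 19.1% and the reverse 1.81%. These shares describe how the sites were chosen, and nothing is read from them. The largest class, with 209 sites (60.9%), had both RA lists and 1 untreated list, which was untreated replicate 1 at 205 of them and replicate 2 at 4. All 4 RARα lists held 73 sites (21.3%), and 22 (6.41%) were in both untreated lists and 1 RA list. Without RARα untreated replicate 1 the count in the RA lists alone rose from 33 to 238. Without RARα RA replicate 1 or 2 it was 119 or 115, and without MAML3 untreated replicate 1 it was 69.

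With each RARα list shortened to 251 peaks, the order of the treatments was less clear. Untreated replicates 1 and 2 then held 147 (42.9%) and 105 (30.6%) of the shared sites, and RA replicates 1 and 2 held 121 (35.3%) and 129 (37.6%). Both RA lists and neither untreated list held 16 of the shared sites, against 45 of the 538 sites with a RARα peak in these shortened lists (8.36%). Both untreated lists and neither RA list held 11, against 17 of the 538 (3.16%). At 100 shared sites no RARα peak was kept. RARα rank was compared in the 143 sites of all 4 RARα lists, ranked over these same sites. Both RA ranks were above both untreated ranks at 10 of the 73 shared sites among them (13.7%), against 19 of the 143 (13.3%), and below at 12 (16.4%), against 24 of the 143 (16.8%). A larger set of 433 sites was in untreated replicate 1 and both RA lists, and 278 of them were shared sites. Both RA ranks were above that of untreated replicate 1 at 69 of the 278 (24.8%), against 31.6% of the 433, and below it at 106 (38.1%), against 35.3%. Both sets hold the shared sites themselves, and the rule used these lists.

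Of the 33 sites whose RARα peaks were in the RA lists alone, the highest ranked lay in LGR5, which encodes a receptor for R-spondins, on chromosome 12 at 71960410 to 71960965. Its RARα scores after RA were 152 and 206. MAML3 scored 546 and 1405 untreated and 1625 and 1087 after RA, and its ranks were 92.1 and 92.2 against 94.4 and 92.3. The treatments did not overlap in MAML3 rank, by a margin in the last printed digit. A site in SNAP25, the gene of a synaptic vesicle fusion protein, showed a wider gap. On chromosome 20 at 10257691 to 10258336, RARα scored 164 and 122 after RA, MAML3 scored 277, 679, 1667 and 1389.6, and the MAML3 ranks were 76.2 and 72.2 untreated against 94.7 and 95.6 after RA. The centres of the 2 proteins were 1.25 bp apart there.

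Among the 8 highest ranked of these sites, MAML3 was above at 5 and below at 2, against 22.1% and 25.4% over the 1724 sites. Above were also the site in EYS on chromosome 6 (64514406 to 64514918), with MAML3 ranks of 57.1 and 46.6 untreated and 72.5 and 75.8 after RA, and the site between RGS1 and RGS13, genes of regulators of G-protein signalling, on chromosome 1 (192597500 to 192597999), with 77.2 and 70.7 against 93 and 84.6. The fifth was in NCALD, the gene of the neuronal calcium sensor neurocalcin delta. A site in SNAP91, whose product works in clathrin-mediated recycling of synaptic vesicles, had ranks of 88.6 and 87.5 untreated and 87.2 and 90.9 after RA, which overlap. Below were the site between PRICKLE1 and ADAMTS20 on chromosome 12 (43356066 to 43356709), with 93.3 and 90.2 against 88.3 and 89.5, and a site on chromosome 5 (105238649 to 105239199), with 89.1 and 86.5 against 79.6 and 77.9.

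In both untreated RARα lists but not in both RA lists were 28 shared sites. The highest ranked of them lay on chromosome 10 at 29543380 to 29543922, with RARα scores of 289 and 140.4 untreated and 253 in RA replicate 1. Its MAML3 ranks were 92.1 and 94.7 untreated and 91.6 and 89.9 after RA. Between TBX3, a T-box transcription factor gene, and MED13L, a subunit gene of the Mediator kinase module, the site on chromosome 12 at 115892860 to 115893565 scored 244 and 102 untreated and 448 in RA replicate 2 for RARα. Of the 8 highest ranked, 1 was above in MAML3 rank, between CADM1 and BUD13 on chromosome 11 (115618767 to 115619362), and 2 were below, the chromosome 10 site and a site in PRKCA, the protein kinase C alpha gene, on chromosome 17 (64394677 to 64395268). The remaining 5 were mixed, among them sites in AGBL4 and HHAT on chromosome 1. Over the 1724 sites in all 4 MAML3 lists, 22.1% were above and 25.4% below. Each of the 8 highest ranked had a RARα peak in 1 RA list, so none shows RARα to be missing after RA. Of the 6 with no RARα peak in either RA list, the highest ranked was on chromosome 9 at 98979651 to 98980200, with RARα scores of 185 and 156 untreated. Its MAML3 scores were 265 and 304 untreated and 181 and 281 after RA.

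The share of sites with higher MAML3 ranks after RA was larger among the shared sites than among other sites in all 4 MAML3 lists. Over all 1724 such sites, 22.1% were above and 25.4% below. Among the 343 shared sites, 116 were above (33.8%, 95% Wilson interval 29 to 39) and 81 below (23.6%, interval 19.4 to 28.4). Among the other 1381 sites 265 were above (19.2%, interval 17.2 to 21.4) and 25.9% below. Without any RARα peak, 140 of 763 were above (18.3%) and 26.3% below. The intervals cover counting error only, since sites are not replicates. The smallest two-sided p of an exact permutation test is 0.33 with 2 libraries a group, and no test was run. MAML3 score was not part of the rule, but 315 of the 343 sites (91.8%) were chosen by RARα peaks in both RA lists, so the direction is not free of the choice of members. Without MAML3 untreated replicate 1 the share above was 47.2% at the shared sites and 32.2% at the others.

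The typical shared site moved little. The median difference in mean rank, RA minus untreated, was 0.145 at the shared sites and -2.22 at the others. Within the lists that carry lane tag 7 (untreated replicate 1 and RA replicate 2) the medians were 0.58 and -2.55, and within lane tag 3 (untreated replicate 2 and RA replicate 1) 0.116 and -1.1. The sign was the same in both lanes. The untreated lists of the 2 tags may hold 1 library, so the lanes may not be independent. The quartiles at the shared sites, -6.84 and 12.1 under tag 7 and -4.29 and 9.83 under tag 3, lay on both sides of 0.

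The direction differed between the RARα classes. Of the 33 sites with RARα in the RA lists alone, 16 were above (48.5%, Wilson interval 32.5 to 64.8) and 6 below (18.2%), with a median rank difference of 6.77. Of the 209 with 1 untreated and both RA lists, 75 were above (35.9%) and 51 below (24.4%), with a median difference of 0.609. Of the 73 in all 8 lists, 20 were above (27.4%) and 13 below (17.8%), but the median difference was -0.812. Of the 22 with both untreated lists and 1 RA list, 4 were above (18.2%) and 9 below (40.9%), with a median difference of -4.54. Of the 6 with the untreated lists alone, 1 was above and 2 below, and the median difference was -8.9. The share above was largest where RARα peaks were in the RA lists alone and smallest where they were in the untreated lists alone, but the intervals of neighbouring classes overlap and the difference between classes was not tested. Within lane tags 3 and 7 the medians were 10.8 and 5.51 for the class with the RA lists alone. They were -3.8 and -4.84 for the 28 sites with both untreated lists and at most 1 RA list.

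**Figure D3:**
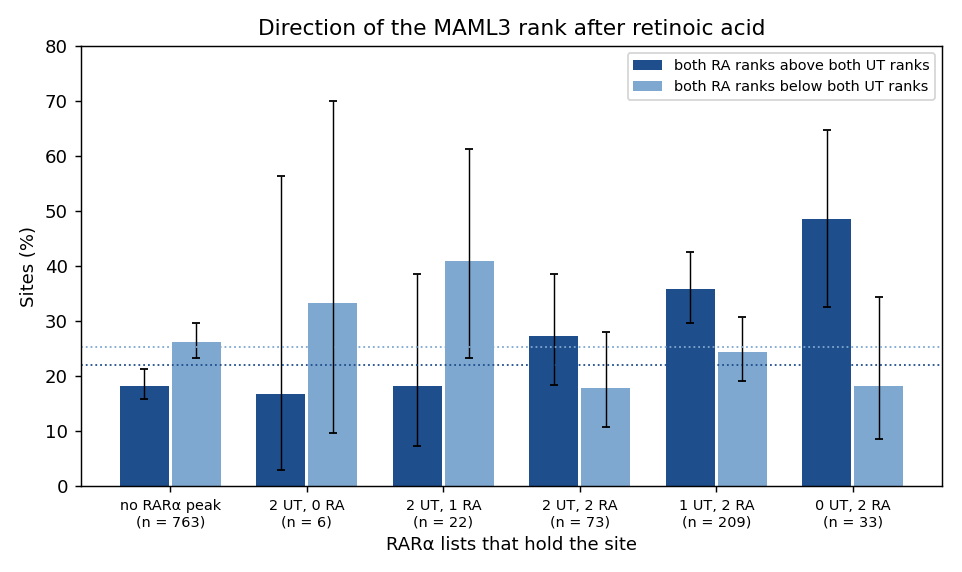
Percentage of sites with both MAML3 RA ranks above, or below, both untreated ranks (vertical axis), by the RARα lists that hold the site, with error bars for 95% Wilson intervals and dotted lines at the 22.1% above and 25.4% below of all 1724 sites. The share above is 48.5% with RARα in the RA lists alone and 18.2% with both untreated lists and 1 RA list, against 18.3% without RARα.

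Since a high rank leaves little room above it, the comparison was repeated in 4 bands of equal size, into which the 1724 sites were divided by MAML3 percentile. In the lowest band 22.2% of 27 shared sites and 15.6% of the other sites were above. In the second, 15 of 32 shared sites (46.9%) and 25.1% of the others were above, and in the third 34 of 73 (46.6%) and 20.7%. In the highest band, which held 211 of the 343 shared sites, 61 were above (28.9%) and 12.7% of the others. More shared sites of the highest band were below, 67 (31.8%), as were 38.2% of the others. From the lowest to the third band 7.41, 6.25 and 13.7% of the shared sites were below, against 23.3, 21.6 and 26% of the others. The share above was larger at the shared sites in each of the 4 bands, and in the lowest band it rested on 6 sites. The median rank difference, RA minus untreated, did not follow in that band: it was -9.16 at the shared sites and -3.5 at the others. In the higher bands it was 22.3 against 0.493, 13.6 against -1.6 and -0.493 against -3.2.

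MAML3 rank also varied with the number of RARα lists. At sites in no RARα list the median ranks in untreated replicates 1 and 2 and RA replicates 1 and 2 were 33.7, 33.6, 32.5 and 31.4. With 1 RARα list they were 52, 52.9, 52.3 and 51.2, with 2 lists 62.4, 63.5, 64.2 and 65.5, and with 3 lists 83.5, 83.3, 85.7 and 86.1. The 73 sites in all 4 RARα lists did not follow this order, at 71.5, 63.2, 76.5 and 85.3. The values are a description across sites of the same libraries, without a test.

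**Figure D4:**
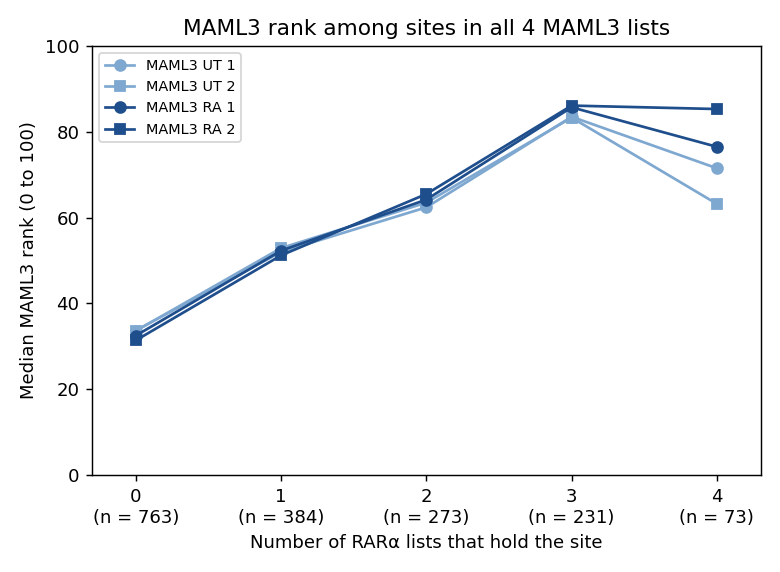
Median MAML3 rank (0 to 100) of the 1724 sites in all 4 MAML3 lists by the number of RARα lists that hold them, with 1 line per MAML3 list and the number of sites under each point. The median increases from at most 33.7 without RARα to at least 83.3 with 3 RARα lists, and lies between 63.2 and 85.3 with all 4.

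The 73 sites in all 8 lists were of 2 kinds. At 28 of them (38.4%) the mean RARα percentile exceeded the mean MAML3 percentile, against 20 of the 270 other shared sites. The 28 had median percentiles of 55.9 for MAML3 and 94.2 for RARα, and the remaining 45 had 96.2 and 74.8, a split that follows from its definition. With the 20 others, RARα ranked above MAML3 at 48 shared sites. The lists of the 2 proteins differ in length, so a higher RARα percentile does not show more RARα than MAML3 bound. Of these 48, 9 were among the 25 highest peaks of RARα untreated replicate 1, where 17 shared sites stood in all. The numbers were 12 of 13 in untreated replicate 2, 11 of 13 in RA replicate 1 and 7 of 15 in RA replicate 2. The examples below were picked after their values were seen.

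**Figure D5:**
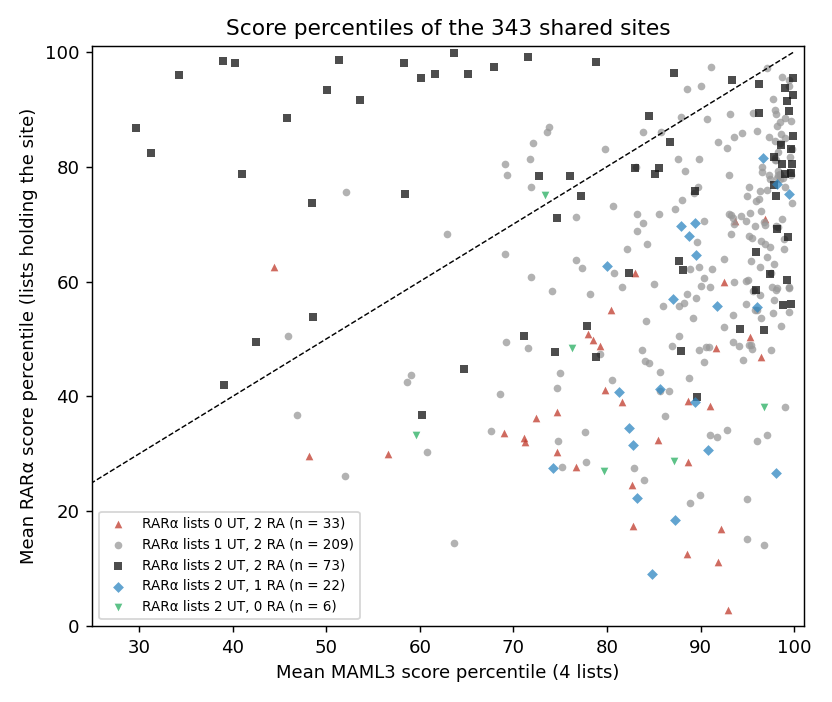
Mean score percentile of each of the 343 shared sites over the 4 MAML3 lists (horizontal axis, from 25) and over the RARα lists that hold it (vertical axis), with 1 symbol per site, coloured by the RARα lists, and a dashed line where both are equal. Most sites lie below the line at high MAML3 percentiles, and 28 of the 48 sites above it are sites of all 8 lists (black squares).

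Several of these sites lay at repeated genes or at chromosome ends. The 2 shared sites in the outer 100 kb of a chromosome were both of this kind. On chromosome 12 at 95327 to 95859, RARα scored 1025 and 1126 untreated and 1449 and 759 after RA, and MAML3 scored 485, 106, 136 and 410.0. On chromosome 1 at 9995 to 10538, RARα scored 698, 1083, 1371 and 499 and MAML3 426, 119, 71.8 and 286. Another 3 lay on chromosome X in the DXZ4 macrosatellite, a tandem repeat array, at 114987159 to 114987660, 114993109 to 114993660 and 114999159 to 114999660, at steps of 5950 and 6050 bp. The first of them had RARα scores of 789.5, 497, 975 and 564 and MAML3 scores of 119, 194, 93 and 100.2.

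Small structural RNA genes held further sites of this kind. The genes of U3, a small nucleolar RNA needed to process ribosomal RNA, carried 4 on chromosome 17, from SNORD3D to SNORD3A and their neighbouring copies, within 18965162 to 19093705. The highest, at 19091235 to 19091871, had RARα scores of 669.6 and 639.9 untreated and 973 and 758 after RA, and MAML3 scores of 240.4, 246, 248 and 216. Genes of spliceosomal RNAs carried others: RNU2-2 on chromosome 11 (62608933 to 62609435), RNU1-2 on chromosome 1 (17222445 to 17222994) and RNU5B-1 on chromosome 15 (65596921 to 65597390). Another lay at the neighbouring RNU4-1 and RNU4-2 on chromosome 12 (120729323 to 120729809), and which of them it covers was not determined. At RNU2-2 the RARα scores were 712, 496, 869 and 617 and the MAML3 scores 293, 434, 279 and 240.2. Places of these kinds are known to have similar copies in the genome, but the copies of each site were not examined here. The treatment of reads that fit several copies is not stated in the sources at hand, and the input samples were not analysed here. The part of such reads in these peaks was not tested. With all 48 sites of higher RARα than MAML3 percentile left out, 295 shared sites were left and 45 of them were in all 8 lists. The share above in MAML3 rank was then 32.2%, against 19.6% at the other sites.

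The repeat, chromosome-end and small RNA sites named above are a part of the 48, and sites of that sort were not counted over the 48. Over all 48, 20 were above in MAML3 rank (41.7%) and 4 below (8.33%). Of the other 295 shared sites, 32.5% were above and 26.1% below. Over the 1724 sites in all 4 MAML3 lists the shares were 22.1% and 25.4%. The 48 were picked by a MAML3 percentile below that of RARα. Their median MAML3 percentile was 66.5, against 92.5 at the 295, so they had more room above and the contrast is not free of the definition. On chromosome 2 at 67788119 to 67788934, RARα scored 895, 257, 943 and 1066. MAML3 scored 142 and 893 untreated and 2401 and 3091 after RA, with ranks of 45.4 and 81.5 against 98.1 and 99.6. The site beside RET described above and the site in ARHGAP31 were also among the 48.

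Some shared sites lay near one another. Another shared site lay within 500 kb of 137 of the 343 (39.9%). This share was not taken for other sites in all 4 MAML3 lists, so it does not show grouping particular to the shared sites. The densest window of 500 kb held 5, upstream of RET on chromosome 10 from 43366708 to 43552079, and 3 windows held 4. In the RET window the MAML3 lists held 5 and 6 peaks untreated and 7 and 6 after RA, and the RARα lists 5 and 1 untreated and 6 and 6 after RA. Of the 5 sites, 4 were above in MAML3 rank and none below, against 22.1% above and 25.4% below over the 1724 sites. The site at 43366708 to 43367279 had ranks of 46.2 and 49.8 untreated and 79.9 and 93.7 after RA, with RARα scores of 335, 87.7, 727 and 463. The site at 43465930 to 43466441 had ranks of 66.1 and 51.9 against 88.6 and 87.1, and that at 43476880 to 43477429 had 12.6 and 33.8 against 81.5 and 90.1. At 43486780 to 43487241 the treatments overlapped, with 40.5 and 36 against 82.5 and 36.5. RA replicate 2 stood among the untreated lists there, and RA replicate 1 stood apart.

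The counts of above and below differed in the other windows. Each held 4 shared sites, too few to set a direction against the 22.1% above and 25.4% below over the 1724 sites. In TENM4, the gene of a teneurin adhesion protein of developing neurons, 4 sites lay on chromosome 11 from 78451413 to 78771716, of which 1 was above and 3 below. The highest MAML3 scores there, at 78571613 to 78572231, were 1172 and 2519 untreated and 2438 and 1808 after RA, with ranks of 99.1 and 98.3 against 98.2 and 97.9. In CLPB, the gene of a mitochondrial disaggregase, 4 sites lay on chromosome 11 from 72019513 to 72123312, with none above and 1 below. RARα untreated replicate 2 had no peak in either of these windows. The remaining window was that of the U3 genes on chromosome 17, with none above and none below, and its lists held 4 to 5 MAML3 peaks and 5 to 6 RARα peaks each.

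Neighbours within 50 kb were counted beside those of sites in all 4 MAML3 lists without RARα. Another MAML3 site lay that close to 82.5% of the 343 (Wilson interval 78.1 to 86.2), against 73.8% of the 763 (interval 70.6 to 76.8). From the lowest to the highest band of MAML3 percentile the shares were 51.9 against 62.6%, 78.1 against 78.2%, 82.2 against 88.1% and 87.2 against 80%. The shared sites thus had the larger share only in the highest band, where the intervals overlap (82 to 91.1 against 68.2 to 88.2). In that band MAML3 percentile was not alike, with a median of 95.9 at the shared sites and 90.7 without RARα. A MAML3 site held by both RA lists and neither untreated list lay within 50 kb of 53 shared sites (15.5%, interval 12 to 19.7) and of 61 sites without RARα (7.99%, interval 6.27 to 10.1). By band the shares were 3.7 against 5.03%, 9.38 against 8.97%, 20.5 against 11.9% and 16.1 against 10%. The gap lay in the upper bands, but the intervals overlap in each band. A site held by both untreated lists and neither RA list was that close to 15 shared sites (4.37%) and to 2.75% of the sites without RARα. Another site with a RARα peak lay within 50 kb of 47.8% of the shared sites and of 27.8% of the sites without RARα, and another shared site within 50 kb of 21.9 and 9.44%. These shares describe positions along the genome, and neighbouring sites are not independent.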

How the data were processed

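ChIP-seq peak lists of MAML3 and RARα from SK-N-SH cells, 4 groups of 2 libraries, were analysed, and the 2 input samples were not analysed here. BWA 0.5.9, MACS, bedtools and hg19 were used per the submitters' processing notes, which were seen without settings. Each deposited list gives 1 score per peak, which the authors made and the labels do not define. Read depths and call thresholds are absent from the sources used here, so the number of peaks stands in for depth, and a site missing from a short list is not shown to be unbound.

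Peaks of all 8 lists were merged by an overlap of 1 bp. Where a list had several peaks in a site, the highest stood for it. Score percentiles were taken within a list, and MAML3 ranks over the 1724 sites in all 4 MAML3 lists. Shares have 95% Wilson intervals. No test was run: an exact permutation test of 2 libraries against 2 cannot go below a p of 0.33, and no model was fitted to the scores.

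The members and lists were chosen with earlier results of these data known. Named sites were drawn from the 12 highest and 5 lowest by joint rank, up to 8 per treatment-specific RARα pattern, the 3 widest, and the windows of 500 kb with most members (4, with ties). The MAML3 rank directions, the sites with a higher RARα than MAML3 percentile and the neighbour counts were added after the data were seen. Retinoid motif shares, start-site shares and gene lists were planned for an hg19 genome and were not run. The scripts used Python 3.11.15, numpy 2.4.6 and pandas 2.3.3, and were tested on simulated lists. The alternatives were other overlap rules, the upper 50% of scores, lists of equal length, chromosome ends left out, and each library left out.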

Additional observations from a re-analysis of the deposited data

How the results depend on the processing

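Merging by 50% overlap of the shorter peak, merging within 1 kb and leaving out chromosome ends gave 341 to 355 shared sites in place of 343. The upper 50% of peaks by score gave 134, and lists of equal length gave 90. Leaving out 1 library gave 344 to 784, since the rule then asks for fewer lists. The 33 sites with RARα in the RA lists alone became 13 in the upper 50% and 16 at equal length, and 33 to 238 with 1 library left out. The median distance between centres was 31.4 bp, 22.8 bp in the upper 50%, and 29.8 to 34.3 bp with 1 library left out.

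The share of shared sites with both MAML3 RA ranks above both untreated ranks was 33.8%, 46.7% at equal length, and 25.1 to 47.2% with 1 library left out. It exceeded the share at the other sites, 18.5 to 35.3%, under each alternative run for it. No paired analysis was possible because every result is a count, a share or a median over peak lists, with no fit in which a shared replicate number could be a block. MAML3 rank differences were taken within lane tags, which pair other replicate numbers. Motif windows and start-site distances were not run without an hg19 genome.

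List length limits these values: the longest and shortest lists held 7532 and 2222 peaks for MAML3, and 1321 and 251 for RARα.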

Other observations

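The chromosomes with most shared sites also held many sites in all 4 MAML3 lists. Shared sites were 38 of 172 such sites on chromosome 1 (22.1%), 30 of 138 on chromosome 7 (21.7%) and 25 of 103 on chromosome 10 (24.3%). On chromosome 17, 16 of the 47 sites in all 4 MAML3 lists were shared with RARα (34%), and 4 of these 16 were the U3 gene sites. On chromosome 21 the number was 5 of 12 (41.7%), on chromosome 6 it was 12 of 99 (12.1%), and on chromosome 19 it was 0 of 4. Over all chromosomes the share was 19.9%. The shares of chromosomes 19 and 21 rest on few sites, and differences between chromosomes were not tested.

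Among sites held by both RARα lists of a treatment, 57 had no peak in any MAML3 list, 30 had 1 MAML3 list and 60 had 2. Their median RARα percentiles were 62.5, 68.9 and 68.7, against 63.9 for the shared sites.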
